A study of Arabidopsis thaliana with 18 samples.

Results

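The comparison described here asks what OPDA, a cyclopentenone oxylipin from which plants make jasmonic acid, still changed in Arabidopsis thaliana plants of the mutant line tga2-5-6, named for the transcription factors TGA2, TGA5 and TGA6. It set 3 tga2-5-6 arrays with OPDA against 3 tga2-5-6 control arrays, chosen by genotype and treatment from the 18 arrays of the series. The OPDA plants were treated for 4 h with 75 µM OPDA. The control plants were treated for 4 h with 0.5% methanol in water. All 6 arrays carried labelled total RNA of tga2-5-6 plants on the ATH1 gene chip. For comparison, wild-type Col-0 plants had 3 arrays with OPDA and 3 control arrays at the same dose and time, and 3 tga2-5-6 arrays had 75 µM PPA1, phytoprostane A1, another cyclopentenone oxylipin. The labels call the 3 replicates of each group independent and name neither organ nor age. No named probe set measured TGA2, TGA5 or TGA6, so the genotype labels were not checked here.

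OPDA is made in the plastid from linolenic acid and is reduced and shortened in the peroxisome to jasmonic acid, whose isoleucine conjugate is read by the COI1 receptor with JAZ repressors and MYC factors. OPDA itself carries a reactive carbonyl group that binds thiols. TGA factors are bZIP proteins that bind TGACG elements, and the class with TGA2, TGA5 and TGA6 is known for salicylic acid signalling and for the induction of detoxification genes by reactive oxylipins and xenobiotics.

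The deposited values were linear intensities, with the same trimmed mean on every array and medians of 168 to 185 on the 6 arrays. Of 22810 probe sets, 21869 were tested, and 12848 of these were paired with 1 gene. Within groups, arrays correlated at r = 0.925 to 0.935 with OPDA and 0.900 to 0.914 in the controls, over log2 values of all tested probe sets. Control replicate 2 stood apart. Probe sets that OPDA raised in Col-0 numbered 623. In control replicate 2 of tga2-5-6, 24.1% of them were at least 2-fold above the mean of the other tga2-5-6 controls. The share was 3.21% in control replicate 1 and 2.09% in control replicate 3. Over all 21869 tested probe sets the shares in tga2-5-6 control replicates 1, 2 and 3 were 8.7%, 11.1% and 8.36%. In Col-0, whose values chose the 623, control replicate 2 also had the highest share. It was 10.6%, against 3.05% and 5.3% in Col-0 control replicates 1 and 3. Over all tested probe sets the shares in Col-0 control replicates 1, 2 and 3 were 7.68%, 7.24% and 8.53%. The median change of those 623 in tga2-5-6 was 1.37 on the log2 scale against control replicate 2 alone, 1.88 against control replicate 1 and 1.76 against control replicate 3. The 3′ to 5′ signal ratio of the actin control probe sets, a measure of RNA integrity, averaged 30.4 ± 4.61 with OPDA and 48.3 ± 16.7 in the controls, and that of GAPDH 1.46 ± 0.25 and 1.55 ± 0.47 (SD, n = 3 each). The part of RNA quality in the results was not tested.

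OPDA raised 744 probe sets in tga2-5-6 (3.40% of those tested) and lowered 670 (3.06%), together 6.47%, at an adjusted p under 0.05 and at least a 2-fold change, by limma fitted to all 18 arrays with Benjamini-Hochberg adjustment over all 21869. Fitted to the 6 arrays of this comparison alone, 401 rose and 317 fell, and 636 of the 1414 calls remained. This is called the 6-array fit below. A gene is said below to have passed, risen or fallen by this rule in the fit to all 18 arrays. Of the 12848 probe sets with 1 gene name, 329 rose (2.56%, 328 genes) and 380 fell (2.96%, 380 genes). The counts of called members in each gene group below are read against these shares. A few calls in a small group say little about that group. The arrays of the 2 groups did not overlap for 2202 probe sets that were higher with OPDA (10.1%) and 4548 that were lower (20.8%). The median log2 difference of all tested probe sets was -0.17, and the median of each gene group below is read against this value. With each array centred on its median, 826 probe sets rose and 474 fell, and with quantile normalization 848 rose and 435 fell, so that the share of raised calls was 63.5% and 66.1%, against 52.6% as deposited. Without control replicate 2 the counts were 818 and 637.

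The most strongly raised genes included those of jasmonate inactivation. Of 5 measured genes of jasmonate metabolism, from a list of 12, 4 rose, with a median log2 difference of 5.06 over the 5. JRG21, AT2G38240 and AT5G05600 belong to a family of dioxygenases that hydroxylate jasmonic acid to an inactive form. JRG21 (AT3G55970) read 4451, 3792 and 4762 with OPDA against 2.33, 107 and 4.56 in the controls. AT2G38240 read 8442, 9970.4 and 8699 with OPDA against 65.4, 271 and 199 in the controls. AT5G05600 read 7469, 7821 and 8511 with OPDA against 363, 1055 and 504 in the controls. For each of the 3 genes every OPDA array exceeded every control array, as naming them among the most raised genes required. Control replicate 2 was the highest control of each. The log2 difference was 5.89 ± 0.72 for AT2G38240 and 3.78 ± 0.37 for AT5G05600 (SE), with adjusted p-values of 0.000225 and 6.47e-05. JRG21 passed as well (adjusted p = 0.00399), and since 2 of its controls read under 16, near the noise of the array, its fold change is not given. AT3G11180, which encodes the remaining dioxygenase of the list, did not pass and stayed low, at 39.2, 40.5 and 19.5 with OPDA against 3.32, 52.7 and 16.9 in the controls. JMT (AT1G19640), the methyltransferase that makes methyl jasmonate, read 537, 729 and 636 with OPDA against 21.2, 109.7 and 2.85 in the controls and rose by 5.06 ± 1.32 (adjusted p = 0.024). Its call was lost without OPDA replicates 1, 2 or 3 or control replicates 1 or 3 (adjusted p up to 0.0984). The 6-array fit also lost the call of JMT (adjusted p = 0.102), which left 3 called genes.

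Genes of jasmonate synthesis and signalling included 1 that rose, but few of them were measured. A kept probe set with 1 gene name was found for 3 of 24 listed synthesis genes and 3 of 23 signalling genes. For response genes it was 2 of 11. The other listed genes were not assessed, so these counts do not describe the pathway as a whole. Of 3 measured synthesis genes only OPCL1 (AT1G20510) passed, a CoA ligase that activates the reduced form of OPDA for β-oxidation. OPCL1 read 3850.4, 3049 and 3218 with OPDA against 807, 1169 and 1049 in the controls, a log2 difference of 1.75 ± 0.27 (adjusted p = 0.00097). AIM1, a β-oxidation enzyme, averaged 1845 ± 241 with OPDA and 1937 ± 159 in the controls, and DGL, a plastid lipase, read under 16 on all OPDA arrays. None of the 3 measured signalling genes passed. The bHLH factor MYC3 differed by 0.57 ± 0.26, its homologue MYC4 by 0.43 ± 0.22 and the ERF factor ORA47 by -0.28 ± 0.56, with adjusted p-values of 0.175, 0.226 and 0.813. Of the 2 measured response genes, the thionin THI2.1 (AT1G72260) rose to 448, 312 and 403 with OPDA against 10.6, 105 and 26.5 in the controls (adjusted p = 0.0243). That call was lost without OPDA replicates 1 or 3 or control replicates 1 or 3 (adjusted p up to 0.105). The defensin PDF1.2 (AT5G44420) read 3589.5, 2681 and 2738 with OPDA against 117, 3026 and 175 in the controls. Control replicate 2 lay within the range of the OPDA arrays, and PDF1.2 did not pass (adjusted p = 0.278). In Col-0 the controls of PDF1.2 also spread widely, at 2020.3, 1086 and 167. The call of THI2.1 (adjusted p = 0.0827) was lost in the 6-array fit as well.

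**Figure D1:**
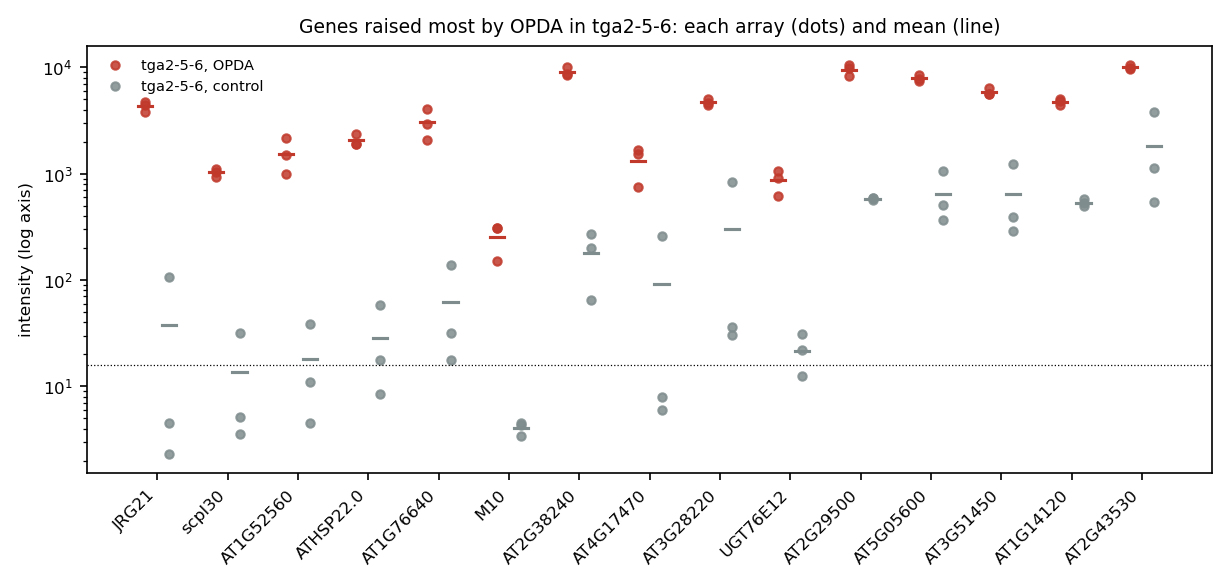
Intensity (log axis) on each tga2-5-6 array with OPDA (red, left) and control (grey, right) for the genes raised most and for those raised most among genes averaging at least 500 in both groups, with the mean of each group as a line. The dotted line marks an intensity of 16. For each gene the OPDA arrays lie above all control arrays, as the rule for naming them required.

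Outside the jasmonate genes, those raised most included genes of several enzyme families and of a defensin-like protein. The serine carboxypeptidase-like gene scpl30 (AT4G15100) read 1029, 939 and 1118 with OPDA against 5.11, 3.57 and 31.9 in the controls. M10 (AT2G41280), a late embryogenesis abundant protein gene, read 305, 150.3 and 306 with OPDA against 4.30, 3.38 and 4.56 in the controls, all under 16. Both passed, with adjusted p-values of 0.00492 and 0.000178. AT3G28220, a TRAF-like protein gene, read 5008, 4425 and 4591 with OPDA against 36.0, 831 and 30.6 in the controls, so that 1 control array was far above the other two. It rose by 5.59 ± 1.22 (adjusted p = 0.00913). AT4G17470 averaged 1313 ± 489 with OPDA and 91.4 ± 146 in the controls, and its call was lost without OPDA replicates 1 or 2 or control replicates 1 or 3 (adjusted p up to 0.0989). Among genes that averaged at least 500 in both groups, AT1G14120, which encodes a 2-oxoglutarate-dependent dioxygenase, had the lowest adjusted p of the genes named here (7.3e-07). It read 4423, 4832 and 5039.7 with OPDA against 526, 582 and 495 in the controls, an 8.93-fold change. AT3G51450, of the strictosidine synthase-like family, rose 11.3-fold to 5909 ± 446 with OPDA, against 639 ± 518 in the controls. AT2G43530, which encodes a defensin-like protein, rose 7.56-fold, with 9833, 10538 and 9662 on the OPDA arrays against 546, 3775 and 1123 on the control arrays. In the 6-array fit the calls of AT3G28220, AT4G17470 and AT2G43530 (adjusted p 0.0871 to 0.107) were lost.

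Redox and detoxification genes were split. Of 5 measured methionine sulfoxide reductases, which reduce oxidised methionine in proteins, 2 rose, and the median of the 5 was 0.75. MSRB6 (AT4G04840) read 4567, 3472 and 6732 with OPDA against 401, 400.1 and 365 in the controls, a log2 difference of 3.61 ± 0.31 (adjusted p = 3.03e-05). MSRB9 (AT4G21850) read 19599, 17411 and 18936 with OPDA against 3379.5, 5129 and 3271 in the controls, a difference of 2.28 ± 0.27 (adjusted p = 0.000178). Both genes had every OPDA array above every control array, as had 10.1% of all tested probe sets. Of 11 measured tau-class glutathione S-transferases, which join glutathione to reactive compounds, 2 rose and 1 fell. The median of the 11 was -0.18, close to the -0.17 of all probe sets. Among all probe sets with 1 gene name 2.56% rose and 2.96% fell. GSTU26 (AT1G17190) read 7069, 5094 and 6965 with OPDA against 345, 398 and 491 in the controls and rose by 3.95 ± 0.30 (adjusted p = 1.41e-05). GSTU16 rose by 1.59 ± 0.30. The fall of GSTU21 lay near the noise, with all OPDA arrays under 16 and controls of 23.3, 26.2 and 20.8, and its call was lost without any 1 of the 6 arrays (adjusted p up to 0.0626), with quantile normalization, and with values under 16 set to 16 (adjusted p = 0.159). GSTU25, of the same class, read 56.0, 62.9 and 73.4 with OPDA against 71.4, 71.5 and 20.0 in the controls and did not pass (adjusted p = 0.578). GSTU20 averaged 6754 ± 1522 with OPDA and 6046 ± 701 in the controls and did not pass.

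Among further genes known to respond to OPDA or other electrophiles, the glutaredoxin GRX480 (AT1G28480), a partner of TGA factors, read 822, 626 and 1049 with OPDA against 24.3, 149 and 88.6 in the controls. It rose by 3.57 ± 0.69 (adjusted p = 0.00439), and no other of the 5 measured glutaredoxins and none of 8 thioredoxins passed. The zinc finger factor STZ (AT1G27730) rose by 1.90 ± 0.44 (adjusted p = 0.0125), a call lost without control replicate 1 (adjusted p 0.0612), which left GRX480 as the 1 called gene of the 3 on that list. The third, AT1G26380, did not pass (log2 difference 0.12 ± 0.61, adjusted p = 0.93). Of 4 measured detoxification genes 2 rose. The glycosyltransferase UGT73B4 (AT2G15490) read 115, 44.8 and 134 with OPDA against 1.68, 3.42 and 14.8 in the controls, and AT5G61820 rose by 1.21 ± 0.17. The related UGT73B5 read 105, 57.4 and 77.4 with OPDA against 51.5, 57.7 and 74.0 in the controls, and AER, an alkenal reductase of reactive carbonyls, read 302, 383 and 239 with OPDA against 477, 404 and 483 in the controls. Neither passed (adjusted p = 0.582 and 0.104). The mitochondrial NADH dehydrogenase NDB2 (AT4G05020) rose by 1.65 ± 0.20 (adjusted p = 0.0002), with 2034, 1841 and 1993 on the OPDA arrays and 606, 695 and 579 on the control arrays. The 6-array fit lost the calls of GRX480, STZ and UGT73B4 (adjusted p 0.06 to 0.0677), which left no called gene on the first list, no called glutaredoxin and 1 called detoxification gene.

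Small heat shock proteins are chaperones that hold unfolding proteins in solution. Among the lists with at least 5 measured genes, their share of raised members was the highest after jasmonate metabolism. This family was written after values were seen, and the other lists were chosen with earlier results known. The rank follows in part from that choice and is not a test. Of all probe sets with 1 gene name 2.56% rose. Of 10 measured members 6 rose and none fell, with a median of 2.51. AT2G29500 read 10493, 8284 and 9789 with OPDA against 568, 595 and 585 in the controls, a log2 difference of 4.02 ± 0.26 (adjusted p = 5.19e-06). AT1G53540 read 4532, 3751 and 4880.4 with OPDA against 159, 120.4 and 234 in the controls, a difference of 4.73 ± 0.44 (adjusted p = 4.85e-05). In both genes all OPDA arrays lay far above all controls, and the rule for naming AT2G29500 required no overlap. ATHSP22.0 (AT4G10250), of the endomembrane class, read 1891, 2383 and 1917 with OPDA against 8.49, 58.5 and 17.6 in the controls. AT1G52560 read 1491, 996 and 2152 with OPDA against 10.96, 38.8 and 4.54 in the controls. AT1G54050 rose by 3.01 ± 0.42 and AT5G37670 by 2.01 ± 0.53. The call of AT5G37670 was lost without OPDA replicates 1 or 3 or control replicates 1 or 3 (adjusted p up to 0.0978). The mitochondrial member AT5G51440 differed by 0.39 ± 0.28 and did not pass (adjusted p = 0.42). Of 5 measured large chaperones, co-chaperones and heat stress factors only Hop3 (AT4G12400) passed, a co-chaperone between HSP70 and HSP90. Hop3 read 1317, 643 and 2078 with OPDA against 182, 249 and 259 in the controls and rose by 2.41 ± 0.39 (adjusted p = 0.00128). Calls lost in the 6-array fit were those of AT5G37670 and Hop3 (adjusted p = 0.0528 and 0.0567), with 5 small heat shock proteins called.

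Of 33 measured calcium sensors of the calmodulin family 4 rose, with none lower (1 lower without control replicate 1) and a median of 0.072. Among all probe sets with 1 gene name 2.56% rose and 2.96% fell, so the absence of lowered members says little. AT1G76640, a calmodulin-like gene with the synonym CML39, read 2938, 2057 and 4091 with OPDA against 17.8, 137 and 31.7 in the controls (adjusted p = 0.00808). CML41 (AT3G50770) rose by 3.48 ± 0.57 and CML38 (AT1G76650) by 2.1 ± 0.47. AT1G21550 rose by 2.58 ± 0.74, a call lost without OPDA replicates 1 or 3 or control replicates 1 or 3 (adjusted p up to 0.118). Of 36 measured MATE transporters, which export small molecules and drugs, 7 rose and none fell, with a median of 0.29. AT5G44050 read 976, 873 and 1236 with OPDA against 97.3, 87.6 and 77.7 in the controls, a difference of 3.55 ± 0.33 (adjusted p = 4.8e-05). AT1G66760 rose by 2.72 ± 0.39. AT3G23550 reached 3455, 3619.8 and 3227 with OPDA against 57.6, 934 and 111 in the controls, and its call was lost without control replicate 1 (adjusted p 0.057). The 6-array fit did not call AT1G21550 and AT3G23550 (adjusted p = 0.245 and 0.0929).

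Jacalin-related lectins and genes of endoplasmic reticulum bodies, organelles that store β-glucosidases against herbivores, included several genes with uneven controls. Of 21 measured jacalin lectins 3 rose and none fell, while the median was -0.44. Among all probe sets with 1 gene name 2.56% rose and 2.96% fell. AT5G35940 read 3426, 2463 and 4692 with OPDA against 439, 760.3 and 589 in the controls, a difference of 2.55 ± 0.54 (adjusted p = 0.00788). AT1G52000 averaged 1526 ± 385 with OPDA and 221 ± 274 in the controls. AT5G28520 averaged 132 ± 9.79 with OPDA and 13.4 ± 10.9 in the controls. The call of AT1G52000 was lost without OPDA replicate 3 or control replicates 1 or 3 (adjusted p up to 0.0813), and that of AT5G28520 without control replicate 1 (adjusted p 0.0601), which left 1 called lectin of 21 without control replicate 1. JAL23 (AT2G39330) read 1867, 2128 and 1607 with OPDA against 15.6, 2036 and 29.9 in the controls, so control replicate 2 lay within the OPDA range. JAL23 did not pass (adjusted p = 0.0666), and without control replicate 2 it did. Of 7 measured genes of endoplasmic reticulum bodies 2 rose. The β-glucosidase BGLU24 (AT5G28510) read 1307, 799 and 1068 with OPDA against 27.9, 52.1 and 24.9 in the controls, a difference of 4.97 ± 0.60 (adjusted p = 0.000205). NAI1 (AT2G22770), a bHLH factor needed for these bodies, rose by 2.02 ± 0.41. PYK10, their main β-glucosidase in roots, averaged 19049.5 ± 1993 with OPDA and 17412 ± 1234 in the controls and did not pass. Of the genes called here, AT5G28520, AT1G52000 and NAI1 (adjusted p 0.0567 to 0.111) lost their calls in the 6-array fit.

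Of 50 measured UDP-glycosyltransferases, which attach sugars to hormones, flavonoids and xenobiotics, 9 rose and 1 fell, with a median of 0.15. Among all probe sets with 1 gene name 2.56% rose and 2.96% fell. UGT76E12 (AT3G46660) read 916, 1064 and 616 with OPDA against 12.5, 21.8 and 30.8 in the controls, a difference of 5.38 ± 1.0 (adjusted p = 0.00351). UGT76B1 (AT3G11340) rose by 1.96 ± 0.28 (adjusted p = 0.000553). The 1 lowered member was UGT71C1 (AT2G29750), which read 101, 136 and 149 with OPDA against 384, 319.7 and 318 in the controls. Left-out arrays moved the lowered count to 2 without OPDA replicates 1 or 3 or control replicate 1, and to 3 without control replicate 2. Of 6 measured flavonoid genes 2 rose, and the median was 1.42. The flavonol rhamnosyltransferase UGT78D1 (AT1G30530) rose by 1.66 ± 0.22 (adjusted p = 0.000392), and the anthocyanin glucosyltransferase gene AT4G14090 by 1.58 ± 0.37. The call of AT4G14090 was lost without OPDA replicate 3 or control replicate 1 (adjusted p up to 0.0635). DFR, dihydroflavonol reductase of anthocyanin synthesis, read 1393, 1802 and 2488 with OPDA against 471, 1136 and 811 in the controls and did not pass (adjusted p = 0.083). UF3GT read 985, 812 and 1348 with OPDA against 255, 568 and 290.0 in the controls (adjusted p = 0.0596), and passed without control replicate 2. In both genes control replicate 2 was the highest control and lay below all OPDA arrays. With the 6 arrays alone 5 UDP-glycosyltransferases were called higher.

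Genes of sulfur and nitrogen use were also among those raised. Of 3 measured genes of sulfate assimilation APS3 (AT4G14680), ATP sulfurylase, passed, at 2899.9, 2274 and 2496 with OPDA against 837, 1392 and 831 in the controls and a difference of 1.36 ± 0.23 (adjusted p = 0.00209). SIR (AT5G04590), sulfite reductase, averaged 8415 ± 935 with OPDA and 4342 ± 910.4 in the controls, just under the 2-fold threshold at 0.97 ± 0.15 (adjusted p = 0.000798). It crossed that threshold without OPDA replicate 3 or control replicate 2 (log2 differences of 1.06 and 1.13). Both measured genes of tryptophan and indole glucosinolate synthesis rose. AT2G04400, indole-3-glycerol phosphate synthase, read 8385, 7894 and 7328 with OPDA against 2065, 3869 and 2104 in the controls, a difference of 1.62 ± 0.23 (adjusted p = 0.000585). UGT74B1, which glucosylates glucosinolate precursors, rose by 1.02 ± 0.19 and was under 2-fold without OPDA replicates 1 or 3 or control replicate 1 (log2 difference down to 0.95). Of 12 measured nitrate and peptide transporters 3 rose and none fell, with a median of 0.26. The glucosinolate transporter genes GTR1 (AT3G47960) and GTR2 (AT5G62680) rose by 1.25 ± 0.18 and 1.13 ± 0.17, and AT3G21670 by 1.43 ± 0.26. AT4G33150, which encodes the bifunctional enzyme of lysine breakdown, rose by 1.42 ± 0.34, a call lost without OPDA replicate 1 or control replicates 1 or 3 (adjusted p up to 0.0674). Calls of APS3, AT3G21670 and AT4G33150 (adjusted p 0.0567 to 0.074) were lost in the 6-array fit, which left no called gene of sulfate assimilation.

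**Figure D2:**
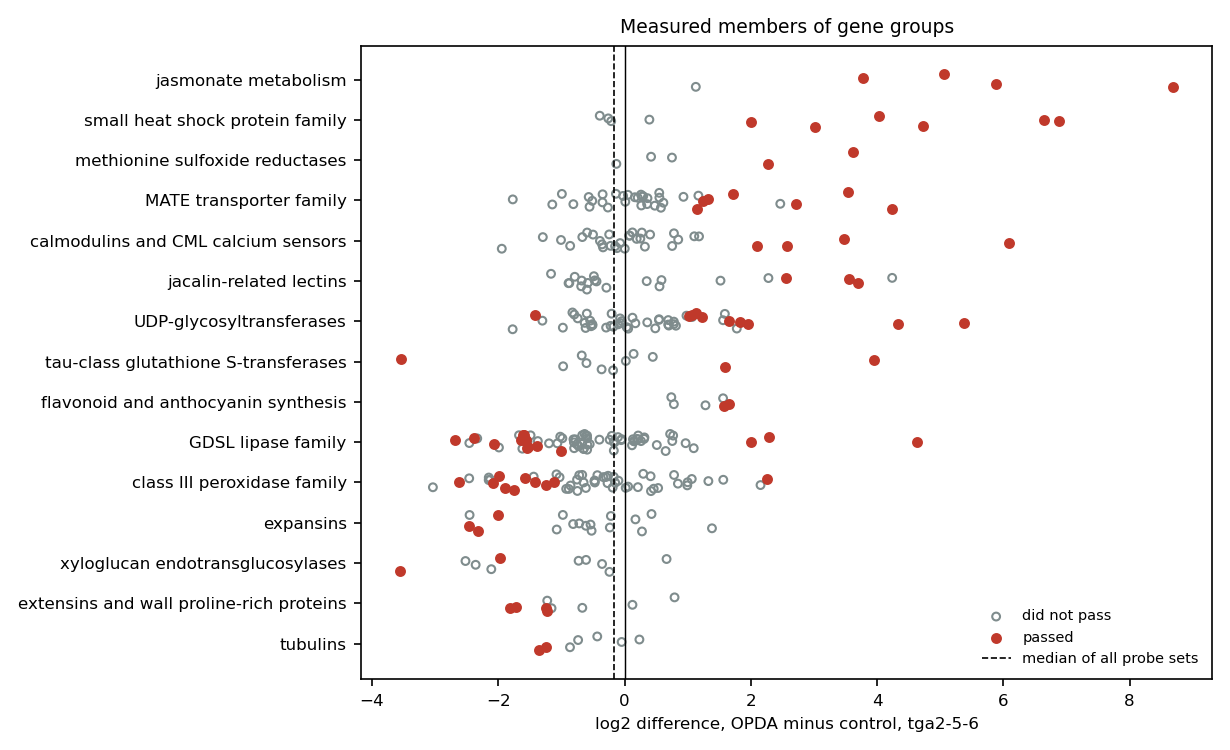
Log2 difference between OPDA and control arrays of tga2-5-6 for each measured member of 15 gene groups, with members that passed as filled red points and the others as open grey points. The solid line marks no difference and the dashed line the median of all probe sets, -0.17. Raised members reach furthest in jasmonate metabolism and the small heat shock proteins. No expansin, xyloglucan endotransglucosylase, extensin or tubulin passed as raised. Of all probe sets with 1 gene name only 2.56% rose, so this absence in small groups says little.

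The genes lowered by OPDA included members of several cell wall families. Of all probe sets with 1 gene name 2.56% rose and 2.96% fell, so the absence of raised members in small families says little. In bulk RNA, fewer cells of a type and less RNA per cell cannot be told apart. None of 17 expansins, proteins that loosen walls, rose and 3 fell, with a median of -0.61. EXLA1 (AT3G45970) read 122, 249 and 183 with OPDA against 1184, 910.1 and 872 in the controls, a difference of -2.47 ± 0.26 (adjusted p = 0.000116). EXPA18 (AT1G62980), an expansin of root hairs, read 118, 101 and 101 with OPDA against 677, 410.0 and 537 in the controls, a difference of -2.32 ± 0.30 (adjusted p = 0.000308). EXLA2 (AT4G38400) differed by -2.0 ± 0.25. In these 3 genes all OPDA arrays lay below all controls, as they did for 20.8% of all tested probe sets. The count became 5 without OPDA replicate 2. EXLA3 read 1.32, 47.3 and 2.80 with OPDA against 50.8, 22.2 and 25.5 in the controls and did not pass.

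Of 10 measured xyloglucan endotransglucosylases, which cut and rejoin wall xyloglucan, 2 fell and none rose, with a median of -1.35. XTH19 (AT4G30290) read 171, 180.3 and 189 with OPDA against 822, 435 and 977 in the controls, a difference of -1.97 ± 0.30 (adjusted p = 0.000847). XTH26 read 18.7, 3.71 and 35.1 with OPDA against 226, 72.2 and 243 in the controls, and its call was lost without OPDA replicates 1 or 2 or control replicates 1 or 3 (adjusted p up to 0.136). XTH21 read 18.4, 8.35 and 6.37 with OPDA against 55.9, 58.7 and 56.2 in the controls and did not pass (adjusted p = 0.119). The count of lowered members was 1 without OPDA replicate 2 or control replicates 1 or 3, and with quantile normalization. Of 9 measured extensins and proline-rich wall proteins 4 fell, with a median of -1.22. AT5G06630 read 183, 156 and 185 with OPDA against 1056, 500.4 and 429.6 in the controls, a difference of -1.81 ± 0.35 (adjusted p = 0.00457). For AT5G06630 the OPDA arrays were close together and below all controls, and control replicate 1 was the highest control. The calls of the other 3 were lost with arrays left out. AT1G23720 was lost without OPDA replicates 1, 2 or 3 or control replicate 1 (adjusted p up to 0.131). AT4G08410 was lost without OPDA replicates 1 or 3 or control replicate 1 (adjusted p up to 0.0828). HRGP1 was lost without OPDA replicates 1, 2 or 3 or control replicates 1 or 3 (adjusted p up to 0.124). The group's count of 4 became 1 without OPDA replicates 1 or 3 or control replicate 1, and 2 without OPDA replicate 2 and with each array centred on its median. In the 6-array fit XTH26, AT5G06630, AT1G23720, AT4G08410 and HRGP1 (adjusted p 0.0657 to 0.14) were not called, which left none of the extensins and proline-rich wall proteins.

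Class III peroxidases are secreted haem enzymes that cross-link walls and make reactive oxygen. Of 55 measured members 9 fell and 1 rose, with a median of -0.47. The shares of all probe sets with 1 gene name were 2.96% lowered and 2.56% raised. AT3G49960 read 139.7, 189 and 68.8 with OPDA against 1122, 564 and 661 in the controls, a difference of -2.62 ± 0.45 (adjusted p = 0.00193). AT1G34510 differed by -2.08 ± 0.44 and AT2G18980 by -1.98 ± 0.34. The raised member was AT5G39580, at 918, 790.3 and 1208 with OPDA against 188, 339 and 127 in the controls. The raised count became 2 without OPDA replicate 1 or control replicate 3, and 6 without control replicate 2. Of 3 measured root hair genes 2 fell. EXPA18 is given above, and the peroxidase gene AT4G26010 averaged 478 ± 152 with OPDA and 1296 ± 454 in the controls. The call of AT4G26010 was lost without OPDA replicates 2 or 3 or control replicates 1 or 3 (adjusted p up to 0.0989), which left 1 called root hair gene. EXPA7, another root hair expansin, read 141, 105 and 96.8 with OPDA against 278, 183 and 265 in the controls and did not pass (adjusted p = 0.236). With the 6 arrays alone 5 peroxidases were called lower and none higher, and the calls of AT3G49960, AT5G39580 and AT4G26010 (adjusted p 0.0501 to 0.104) were lost.

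GDSL lipases, a large family of extracellular esterases, changed in both directions, with 3 of 69 higher, 11 lower and a median of -0.61. Among all probe sets with 1 gene name 2.56% rose and 2.96% fell. The lowered count was 7 without control replicate 3. AT1G29660 read 356, 411 and 299 with OPDA against 2176, 1829 and 2895 in the controls, a difference of -2.68 ± 0.25 (adjusted p = 4.7e-05). AT1G75900 differed by -2.06 ± 0.24. AT3G16370 fell to 1573, 1738 and 1746 with OPDA, against 6289, 4027 and 5688 in the controls. The raised members were AT1G31550 (2.28 ± 0.34), AT2G03980 (2.0 ± 0.26) and AT1G54020, which read 3112, 3116 and 3634 with OPDA against 57.9, 879 and 45.3 in the controls. The call of AT1G54020 was lost without control replicates 1 or 3 (adjusted p up to 0.0626), when control replicate 2 was among the controls kept. The β-tubulins TUB1 (AT1G75780) and TUB5 (AT1G20010) fell, with log2 differences of -1.35 ± 0.23 and -1.24 ± 0.18, 2 of 7 measured tubulins, with adjusted p-values of 0.00172 and 0.000557. With the 6 arrays alone 7 GDSL lipases were called lower, and the call of AT1G54020 (adjusted p = 0.0989) was lost.

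**Figure D3:**
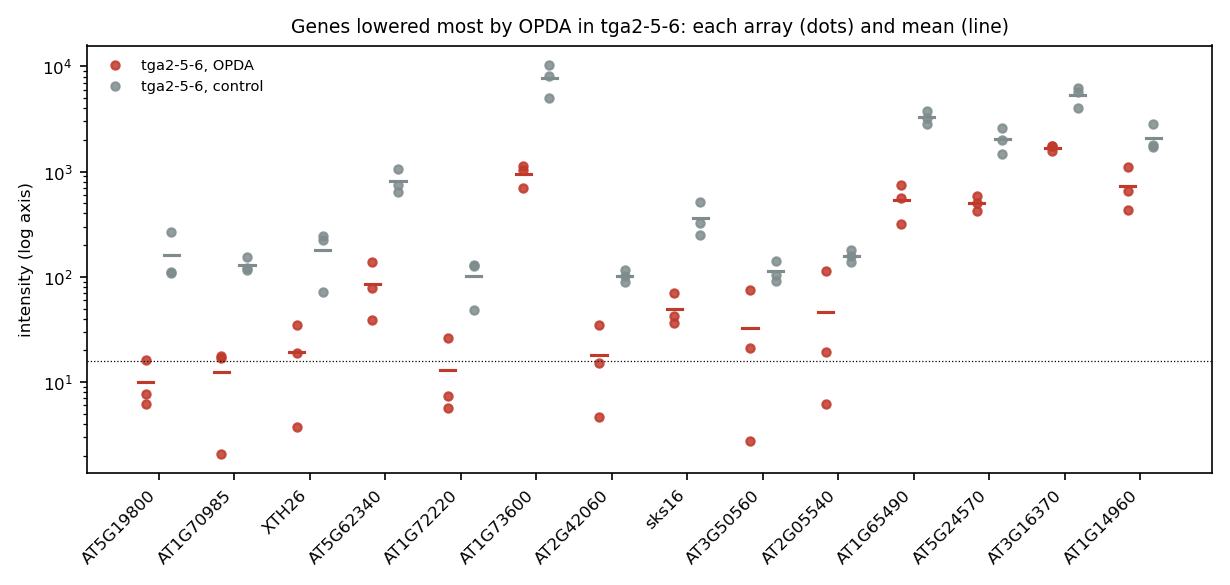
Intensity (log axis) on each tga2-5-6 array with OPDA (red, left) and control (grey, right) for the genes lowered most and for those lowered most among genes averaging at least 500 in both groups, with the mean of each group as a line. The dotted line marks an intensity of 16. Several OPDA arrays lie under that line. AT1G73600, AT1G65490, AT5G24570 and AT3G16370 are among the genes that stay above it on all 6 arrays.

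Among the genes lowered most, AT1G73600 encodes a methyltransferase of phosphocholine synthesis and read 1133, 1027 and 691 with OPDA against 8061, 4983 and 10322 in the controls, which left 12.2% of the control level (log2 difference -3.0 ± 0.31, adjusted p = 8.88e-05). AT1G65490 read 316, 742 and 557 with OPDA against 3783, 3249.7 and 2856 in the controls, a difference of -2.69 ± 0.33 (adjusted p = 0.000218). AT5G24570 read 424, 580.3 and 504 with OPDA against 2609.9, 1478 and 1977 in the controls, a difference of -1.98 ± 0.22 (adjusted p = 0.000129). In these 3 genes the groups did not overlap, as the rule for naming them required. AT5G62340, an invertase and pectin methylesterase inhibitor-type gene, read 39.0, 78.9 and 139 with OPDA against 1052, 638 and 739 in the controls, a difference of -3.39 ± 0.61. sks16 (AT2G23630), of a copper oxidase-like family of the wall, read 69.6, 36.3 and 42.1 with OPDA against 516, 250.2 and 327 in the controls, a difference of -2.88 ± 0.34 (adjusted p = 0.000178). AT5G19800 read 6.19, 7.69 and 16.2 with OPDA against 266, 108 and 111 in the controls, and AT1G72220, a RING-type protein gene, read 26.2, 7.32 and 5.70 with OPDA against 129, 126 and 48.8 in the controls. Both passed, with OPDA arrays at or near the noise. In this rank 4 further genes had calls that did not survive leaving out single arrays. AT1G70985 was lost without OPDA replicate 3 or control replicates 1, 2 or 3 (adjusted p up to 0.104). AT2G42060 was lost without OPDA replicates 1 or 2 or control replicates 1, 2 or 3 (adjusted p up to 0.158). AT3G50560 was lost without OPDA replicates 1 or 2 or control replicates 1, 2 or 3 (adjusted p up to 0.13). AT2G05540 was lost without OPDA replicates 2 or 3 or control replicates 1, 2 or 3 (adjusted p up to 0.109). AT1G14960, which averaged 732 ± 344 with OPDA and 2104 ± 631 in the controls, was lost without OPDA replicates 1 or 2 or control replicate 3 (adjusted p up to 0.0913). The 6 arrays alone did not call AT1G70985, AT2G42060, AT3G50560, AT2G05540, AT1G14960 and AT1G72220 (adjusted p 0.0789 to 0.257).

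Hormone, regulator and turnover families had few called members. Among all probe sets with 1 gene name 2.56% rose and 2.96% fell, so single calls in these small families say little about the family. Of 4 measured GH3 enzymes, which join amino acids to auxin and related acids, 1 rose and 2 fell. WES1 (AT4G27260) read 90.9, 87.7 and 137 with OPDA against 299.9, 203 and 338 in the controls, a difference of -1.41 ± 0.27 (adjusted p = 0.0042). GH3.17 averaged 435 ± 90.4 with OPDA and 1079.7 ± 203 in the controls, and its call was lost without OPDA replicates 1 or 3 or control replicates 1 or 3 (adjusted p up to 0.123), and with each array centred on its median. GH3.3 (AT2G23170) read 1015, 668 and 555 with OPDA against 409, 278 and 327 in the controls, a difference of 1.11 ± 0.25, and its call was lost without OPDA replicate 1 (adjusted p 0.0507) or control replicate 2 (log2 difference 0.98). None of 7 Aux/IAA proteins passed. Of 7 measured WRKY factors WRKY6 (AT1G62300) rose by 1.5 ± 0.29 (adjusted p = 0.00486). WRKY53 (AT4G23810), a factor of leaf senescence and salicylic acid responses, read 119, 139.6 and 116 with OPDA against 402, 482 and 432 in the controls, a difference of -1.81 ± 0.25 (adjusted p = 0.000524). Among 23 measured cytochromes P450, 2 rose and 2 fell. CYP71B37 (AT3G26330) rose by 1.34 ± 0.18, and CYP71B24 (AT3G26230) and CYP71B23 (AT3G26210) differed by -1.98 ± 0.31 and -1.43 ± 0.30. CYP84A4 rose by 1.17 ± 0.33, a call lost without OPDA replicates 1 or 3 or control replicates 1, 2 or 3 (adjusted p up to 0.143), and the raised count was 1 without OPDA replicates 1 or 3 or control replicates 1 or 2. Of 15 U-box and RING E3 ligases, which tag proteins with ubiquitin, ATL8 and PUB23 rose, by 1.67 ± 0.38 and 1.32 ± 0.31. The call of ATL8 was lost without OPDA replicate 3 (adjusted p 0.0541) and that of PUB23 without OPDA replicate 1 or control replicates 1 or 3 (adjusted p up to 0.0615). None of 11 autophagy proteins passed, and without OPDA replicate 2 ATG8H did. The cellulose synthase-like gene CSLA01 averaged 257 ± 63.9 with OPDA and 23.0 ± 19.4 in the controls, with a call lost without OPDA replicates 1, 2 or 3 or control replicate 1 (adjusted p up to 0.0886). Fitted alone, the 6 arrays did not call WES1, GH3.17, GH3.3, CYP84A4, ATL8, PUB23 and CSLA01 (adjusted p 0.0507 to 0.136), so that no GH3 enzyme, no E3 ligase of the list and 1 raised cytochrome P450 were called.

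Constitutive and organ genes were read for the state of the samples. The 3 measured constitutive genes did not pass, with log2 differences of 0.10 for PEX4, -0.098 for AT2G28390 and -0.075 for AT4G34270, and the sign of AT4G34270 turned to 0.022 with each array centred on its median. The labels name no organ, and genes of shoot and root were both detected. The photosystem subunit PSAE-1 averaged 14562 ± 2958 with OPDA and 21069 ± 2327 in the controls, and none of 4 photosystem subunits and 3 chlorophyll-binding proteins passed. PSAE-1 had an adjusted p of 0.0534. Of 3 measured root and root hair markers EXPA18 fell, and of the leaf markers only FMA, a guard cell factor, was measured, at 73.0, 70.2 and 68.1 with OPDA against 123, 77.0 and 88.7 in the controls. No vascular marker of the list was measured.

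The same OPDA treatment in Col-0, which shares no array with the tga2-5-6 comparison, raised 623 probe sets (2.85%) and lowered 460 (2.10%), together 4.95%. Of the raised sets 477 passed in both genotypes, which is 64.1% of those raised in tga2-5-6 and 76.6% of those raised in Col-0. Of the lowered sets 253 passed in both, 37.8% of those in tga2-5-6 and 55.0% of those in Col-0. The 623 sets raised in Col-0 had a median log2 difference of 1.68 in tga2-5-6, where 600 of them were above 0 and 511 reached 2-fold, and 1.85 in Col-0, whose values chose them. The 460 lowered in Col-0 had a median of -1.25 in tga2-5-6, where 451 were below 0 and 303 reached 2-fold, and -1.43 in Col-0. A call in 1 genotype and not in the other does not show a difference, and 146 of the 623 and 207 of the 460 did not pass in tga2-5-6. A further 1 probe set rose in tga2-5-6 and fell in Col-0, and 2 fell in tga2-5-6 and rose in Col-0.

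**Figure D4:**
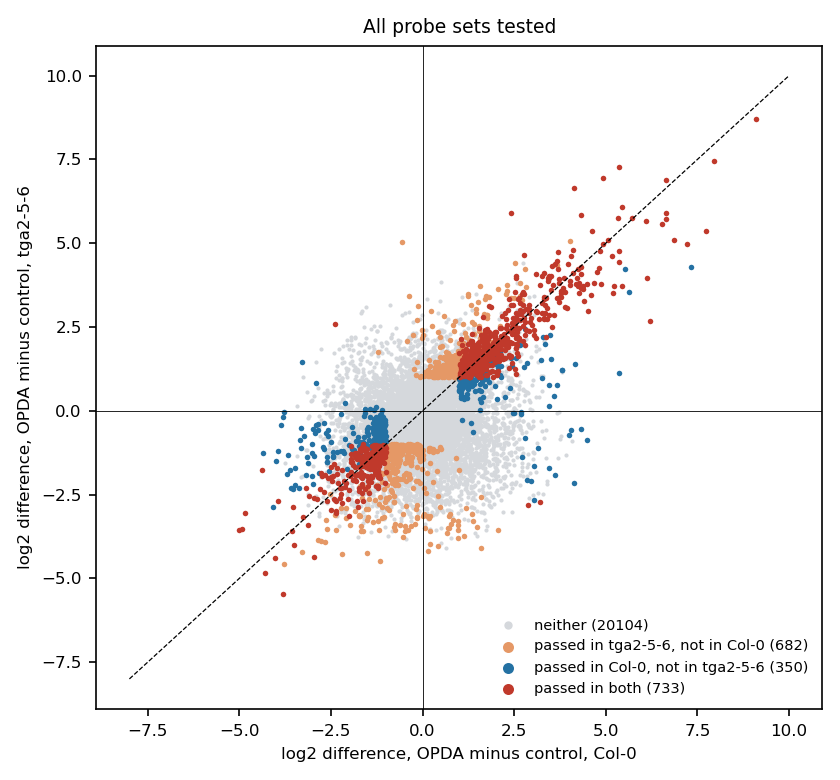
Log2 difference between OPDA and control in tga2-5-6 (vertical) against that in Col-0 (horizontal) for all 21869 tested probe sets, coloured by where they passed, with the line of equal response dashed. Of the 733 sets that passed in both genotypes, 477 are raised in both, 253 lowered in both and 3 differ in sign.

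The difference between the genotypes' responses was tested as an interaction. No probe set passed (0%), the smallest adjusted p was 0.337, and 1419 (6.49%) had an unadjusted p under 0.05. The median difference was -0.033 on the log2 scale over all probe sets. The 95% interval of a single difference was wide, with a median half-width of 0.968 among the 623 sets raised in Col-0. That interval is not adjusted for the number of probe sets, and differences above 2-fold also did not pass. For AT2G29500 the difference was 1.49 (adjusted p = 0.515). The absence of calls therefore does not show equal responses. With values under 16 set to 16, 5 probe sets passed, and with 16 added before taking logs 7 did, with M10 and AT5G51500 among them in both cases. GSTU25 was among the 7, and it also passed without control replicate 3 of tga2-5-6. Leaving out 1 array of the 12 gave between 0 and 3 sets. It gave 3 sets without OPDA replicate 3 of tga2-5-6, 2 without control replicate 3 of tga2-5-6 or OPDA replicate 3 of Col-0, and 1 without control replicate 1 of tga2-5-6 or OPDA replicate 2 of Col-0.

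Several genes raised by OPDA had nearly equal estimates in both genotypes. In each direction, 5 genes were named for the least difference among those that passed in both genotypes. Their near equality follows from that choice. AT4G38540, which encodes a flavin monooxygenase, rose by 1.41 ± 0.23 in tga2-5-6 and 1.40 ± 0.23 in Col-0. AT3G21690, a MATE transporter gene, rose by 1.24 ± 0.17 in tga2-5-6 and 1.25 ± 0.17 in Col-0, with a difference of -0.0077 (95% interval -0.53 to 0.51). For AT3G21690 the interval spans less than 2-fold in either direction. Near-equal estimates did not always come with a narrow interval. AT3G23550, another MATE transporter gene named by this rule, had a difference of -0.0083 with a 95% interval of -2.94 to 2.92. MSRB9 rose by 2.28 ± 0.27 in tga2-5-6 and 2.45 ± 0.27 in Col-0, with a difference of -0.17 (95% interval -0.98 to 0.64). AT1G14120 rose by 3.16 ± 0.16 in tga2-5-6 and 3.34 ± 0.16 in Col-0, with a difference of -0.18 (95% interval -0.68 to 0.32). Among lowered genes, ChiC, a chitinase gene, averaged 306 ± 66.0 with OPDA and 967 ± 304 in the controls of tga2-5-6. In Col-0 it averaged 284 ± 16.8 with OPDA and 888 ± 144 in the controls. EXPA18 differed by -2.32 ± 0.30 in tga2-5-6 and -2.27 ± 0.30 in Col-0. TET10, a tetraspanin gene, differed by -1.16 ± 0.20 in tga2-5-6 and -1.16 ± 0.20 in Col-0. The call of TET10 in tga2-5-6 was lost without control replicate 3 (log2 difference -0.996). The jasmonate dioxygenase gene AT5G05600 was named for its rise and not for a small difference. It rose by 3.78 ± 0.37 in tga2-5-6 and 4.50 ± 0.37 in Col-0, a difference of -0.72 (95% interval -1.85 to 0.41). That interval includes a response more than 2-fold weaker in tga2-5-6. Fitted alone, the 6 arrays did not call AT4G38540 and TET10 (adjusted p = 0.0562 and 0.0876).

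Estimates of the difference are given as values, since none passed. Among genes that passed with OPDA in either genotype, the 6 with the lowest adjusted p and a lower estimate in tga2-5-6 are given, with GSTU22, AER and UGT73B5, genes of detoxification chosen after their values were seen. GSTU25 read 56.0, 62.9 and 73.4 with OPDA against 71.4, 71.5 and 20.0 in the controls of tga2-5-6. In Col-0 it read 3277, 2766 and 2862 with OPDA against 305, 282 and 178 in the controls, and the difference between the responses was -3.13 (95% interval -4.48 to -1.78) (adjusted p = 0.371). The unadjusted interval did not include 0, but the genes here were chosen by lowest p or after their values were seen. Unadjusted intervals that exclude 0 follow from that choice and do not show a difference. The control level of GSTU25 was also lower in tga2-5-6 than in Col-0, with a log2 difference of -2.41 (adjusted p = 0.0284). GSTU22 showed the same order, at 96.9, 66.9 and 71.6 with OPDA against 79.3, 77.3 and 72.5 in tga2-5-6 controls and 472, 277 and 415 with OPDA against 164, 135 and 94.8 in Col-0 controls. Its responses differed by -1.54 (95% interval -2.46 to -0.62) (adjusted p = 0.637). The difference between the responses was -1.5 (95% interval -2.16 to -0.83) for AER and -1.20 (95% interval -2.30 to -0.11) for UGT73B5, with adjusted p-values of 0.371 and 0.743. The trypsin inhibitor-type gene AT1G17860 read 1101, 1342 and 1283 with OPDA against 1855, 1233 and 1812 in tga2-5-6 controls. In Col-0 it read 6324, 4218 and 4013 with OPDA against 2075, 1828 and 1848 in controls. The OPDA arrays of AT1G17860 lay above all controls in Col-0 and overlapped them in tga2-5-6, and the difference between the responses was -1.69 (95% interval -2.44 to -0.93) (adjusted p = 0.389). GH3.3 averaged 1239 ± 230.0 with OPDA and 211 ± 33.2 in controls of Col-0, and its responses differed by -1.44 (95% interval -2.20 to -0.68) (adjusted p = 0.515). AT2G14520 and AT5G19420 had differences of -1.34 and -1.5. AT5G51500, of the pectin methylesterase family, read 8.46, 11.1 and 12.6 with OPDA against 74.3, 80.5 and 58.2 in tga2-5-6 controls and 176, 127 and 139.9 with OPDA against 2.80, 30.0 and 46.2 in Col-0 controls. The call of AT5G51500 in tga2-5-6 was lost without any 1 of the 6 arrays (adjusted p up to 0.105).

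The 6 genes with the lowest adjusted p and a higher estimate in tga2-5-6 were taken in the same way, so their unadjusted intervals have the same limit. M10 read 305, 150.3 and 306 with OPDA in tga2-5-6 and 13.8, 9.63 and 22.6 with OPDA in Col-0, with controls of both genotypes under 16. AT2G29500 averaged 9522 ± 1129 with OPDA and 583 ± 13.6 in controls of tga2-5-6. In Col-0 it averaged 9886 ± 2289.9 with OPDA and 1698 ± 378 in controls, and the responses differed by 1.49 (95% interval 0.70 to 2.27) (adjusted p = 0.515). Its control level was lower in tga2-5-6 than in Col-0 by a log2 difference of -1.52 (adjusted p = 0.0165). The peroxidase gene AT5G39580 read 188, 322 and 139 with OPDA against 190.2, 246 and 175 in controls of Col-0, and its responses differed by 2.24 (95% interval 0.92 to 3.56). AT1G69360 and AT2G27500, a β-1,3-glucanase-type gene, had differences of 1.11 and 1.15, and AT4G23730 had 1.25. The call of AT4G23730 in tga2-5-6 was lost without OPDA replicate 1 or control replicate 1 (log2 difference down to 0.86). It was also lost with the 6 arrays alone, as was that of AT5G39580.

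**Figure D5:**
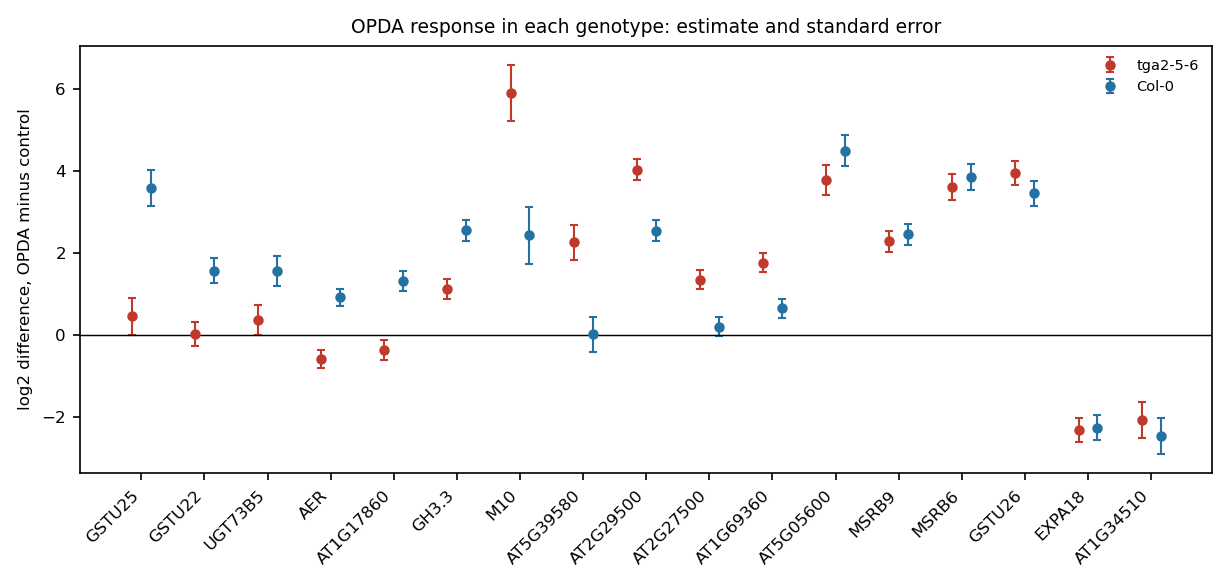
Log2 difference between OPDA and control with its standard error in tga2-5-6 (red, left) and Col-0 (blue, right) for genes named in the text. No pair differed at an adjusted p under 0.05, the controls of M10 lie near the noise in both genotypes, and GSTU25 has the widest gap among the plotted genes with all group means above 16.

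PPA1 was compared with the same 3 tga2-5-6 controls, so its values are set beside those of OPDA without a test between the agents. JRG21 read 4451, 3792 and 4762 with OPDA, 133, 159 and 4.48 with PPA1 and 2.33, 107 and 4.56 in the controls. AT5G05600 read 7469, 7821 and 8511 with OPDA, 1949.6, 1279 and 684 with PPA1 and 363, 1055 and 504 in the controls. MSRB6 averaged 4924 ± 1659 with OPDA, 542 ± 199 with PPA1 and 389 ± 20.6 in the controls. For these 3 genes every PPA1 array lay below every OPDA array. The order was the other way round for the small heat shock protein genes AT2G29500 and ATHSP22.0. AT2G29500 read 10493, 8284 and 9789 with OPDA, 15472, 13626 and 17568 with PPA1 and 568, 595 and 585 in the controls. ATHSP22.0 averaged 2063 ± 277 with OPDA, 5260.1 ± 1436 with PPA1 and 28.2 ± 26.6 in the controls. In both genes every PPA1 array lay above every OPDA array. How often the arrays of the 2 agents separate over all probe sets was not counted. AT1G26380, an oxidase-type gene, averaged 209 ± 156 with OPDA, 1019 ± 336 with PPA1 and 185 ± 115 in the controls. GSTU25 averaged 64.1 ± 8.74 with OPDA, 158 ± 83.1 with PPA1 and 54.3 ± 29.7 in the controls.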

How the data were processed

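Gene expression was measured on Affymetrix ATH1 arrays, 3 for each of 6 groups. The authors deposited linear intensities, 1 per probe set and array. The submitters' processing notes name GCRMA, with a version not given in the sources used here, although the deposited intensities are linear and scaled to a common trimmed mean, so the summarisation is not known. Values under 1 were set to 1 and the deposited intensities were then taken to log2, with no further normalization.

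AFFX controls were left out, as were probe sets that reached 16 on fewer than 3 arrays. Fits used limma 3.58.1 in R 4.3.3 on all 18 arrays with a mean per group (12 residual degrees of freedom), two-sided, with Benjamini-Hochberg adjustment over 21869 probe sets. A probe set passed at an adjusted p under 0.05 and at least 2-fold. Log2 differences are OPDA minus control ± SE, and means are ± SD with n = 3. The number of arrays limits the precision.

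Gene names came from the platform annotation and, through locus IDs, TAIR10.1. A list's members are its genes with a probe set of 1 gene that passed the filter, 471 kept probe sets had several genes and 8550 no name here, and these were left out of the lists. Where a group mean or geometric mean was under 16, levels are given and no fold. Named genes were the 10 most raised and lowered by log2 change without overlap and with the higher mean at least 100, the 5 most raised and lowered with both means at least 500, up to 3 per direction in each list, and 5 per direction with the least difference between genotypes. No probe set passed for that difference, so 6 per direction with the lowest adjusted p, among those that passed in either genotype, were taken after the values were seen. The members and lists were chosen with earlier results of these data known. The whole families of peroxidases, small heat shock proteins, large chaperones, jacalins, MATE transporters, methionine sulfoxide reductases, calcium sensors, GDSL lipases, extensins, root hair, endoplasmic reticulum body and flavonoid genes were written, and some further genes named, after values were seen. A planned count of promoter motifs was not run, since no promoter sequences were used here. Alternatives were 2 normalizations, the floor, a pseudocount, the filter, the moderation, the fold threshold, the replicate number as a block, the comparison's arrays alone and each array left out.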

Additional observations from a re-analysis of the deposited data

How the results depend on the processing

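Without the fold threshold 2642 probe sets passed in tga2-5-6 and 1832 in Col-0. A fit to the 6 tga2-5-6 arrays alone gave 718, and 636 of the 1414 calls remained in it. Leaving out 1 array gave 1019 to 1455 calls in tga2-5-6, with 930 to 1140 of the 1414 remaining and the lowest count without control replicate 1, and 800 to 1001 in Col-0. For the difference between genotypes, setting values under 16 to 16 gave 5 and a pseudocount of 16 gave 7, and leaving out 1 array gave 0 to 3. Of 117 named genes that passed in tga2-5-6, 63 kept their call in each of 16 alternatives and 77 whenever 1 array was left out. The 6 arrays alone lost 50 of those calls, quantile normalization 9 and median centring 8. Of 53 named genes that did not pass, 13 passed under some alternative, and no named gene reversed its called direction. Replicate numbers were shared by the groups, and the main fit did not pair arrays by them. Within tga2-5-6, deviations of same-numbered OPDA and control arrays correlated at -0.017, 0.036 and 0.040. For the 623 probe sets raised in Col-0, control replicate 2 stood above the other controls in both genotypes. Whether same-numbered arrays share a batch was not tested. With the replicate number as a block 1412 probe sets passed in tga2-5-6 and none for the difference between genotypes (1428 at an unadjusted p under 0.05, limma). The cause of these changes was not tested beyond the smaller number of arrays. Levels under about 16 lie near the noise of the array, and 15% to 18% of probe sets read under 16 on each OPDA array.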
